A study of Drosophila melanogaster with 6 samples.

Results

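A set of 10 genes that encode matrix proteases and other outputs of JNK signaling in Drosophila tumors was followed in RNA sequencing of the salivary gland imaginal ring, and 7 of the 10 have a row in the authors' deposited table of tumor against control. The genes were chosen by name, with earlier results of these data known. They are Mmp1, Mmp2, Timp, Ilp8, Ets21C, Atf3, scaf, cher, Pvf1 and Pvf2. That table holds 6156 genes, and the authors' call numbers add up to 9384 tested genes. The imaginal ring is a band of small diploid progenitor cells at the front of the larval salivary gland, beside large polyploid secretory cells. The 3 control samples carried the ubiquitous actin driver with Gal80ts and GFP (Actts>GFP) and were labelled as larvae at the third instar. The 3 tumor samples carried the same driver, repressor and GFP with NICD, the active intracellular part of Notch (Actts>GFP+NICD), and were labelled with 7 days at 18 °C and then 7 days at 29 °C. The labels give no temperature or days for control samples, so any difference in age or temperature cannot be told apart from genotype. The actin driver acts in all tissues, so NICD was not limited to the imaginal ring, and the labels do not say whether a sample was 1 animal or a pool.

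In flies, JNK (the kinase encoded by bsk) phosphorylates the AP-1 proteins encoded by Jra and kay, which switch on stress and wound genes. In epithelial tumors this pathway is known for turning on Mmp1, whose product cuts basement membrane, and for secreted signals that delay growth and development of the whole larva. Matrix proteases, their inhibitor, the relaxin-like hormone Ilp8, PDGF/VEGF-like ligands, actin regulators and further transcription factors are among its known outputs.

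All values come from the authors' own comparison, which gives 1 fold change, 1 mean level and 1 p per gene and no value per sample. No SD, SE or n can therefore stand beside a fold change, the depth of the libraries is unknown, and whether the samples of the groups overlap cannot be seen. An adjusted p here is the authors' Benjamini-Hochberg value over the genes they tested. It sets a difference against an estimate of the variation between 3 samples a group, which may be technical. The deposited calls stand under a heading of 1.2 and the columns carry the names of a test against a minimum fold, so these p-values and calls may be against a 1.2-fold change and not against no change. A gene without a call may then still differ by a small fold. A log2 fold change above 0 means higher in tumor. CPM stands for counts per 1000000 reads, and CPM of a single group was estimated from the authors' mean level and fold change. The group estimates of all listed genes sum in control to 3.49 times their sum in tumor. A rescaling that makes these sums equal would add 1.80 to every log2 fold change. Listed secretory gland markers went from a summed 278895 to 320.1 CPM, and fat body markers from 193927 to 1650 CPM. Their fall is thus part of the 1.80, and whether this shift is a fit scaling for other genes was not tested. In bulk RNA, a change in the share of cells of a type and a change in RNA per cell cannot be told apart.

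All 7 listed members were higher in tumor, and none was lower. Of all tested genes 65.6% were called in either direction, 34.0% as higher and 31.6% as lower, so 7 listed members of 10 (70.0%) is close to the share of all genes that were listed. Their median log2 fold change was 2.67, against 0.57 over all listed genes and 1.75 over the 3187 genes listed as higher. This contrast is a description only, as the members were chosen with earlier results of these data known. The 7 values ran from 1.53 for Atf3 to 6.12 for Ilp8 in the authors' deposited table. Each was at least 2-fold higher by its listed fold, as were 26.7% of all tested genes. The authors' own calls under their second heading, of 2, cover 19.7% of tested genes as higher, and the files do not say which members are among them. Relative to the median of all listed genes (0.57) all 7 stayed higher, as follows from a smallest value of 1.53. The rescaling only adds to each value, so it could turn no higher gene lower. Ilp8, Ets21C and Mmp1 formed the upper end, and Timp, Pvf2, Mmp2 and Atf3 lay between 2.88-fold and 6.35-fold. The other 3 members, Pvf1, scaf and cher, have no row, under these symbols or their gene identifiers. A gene without a row was either tested and not called, as 3228 genes were, or not tested, and the files used here do not say which.

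**Figure D1:**
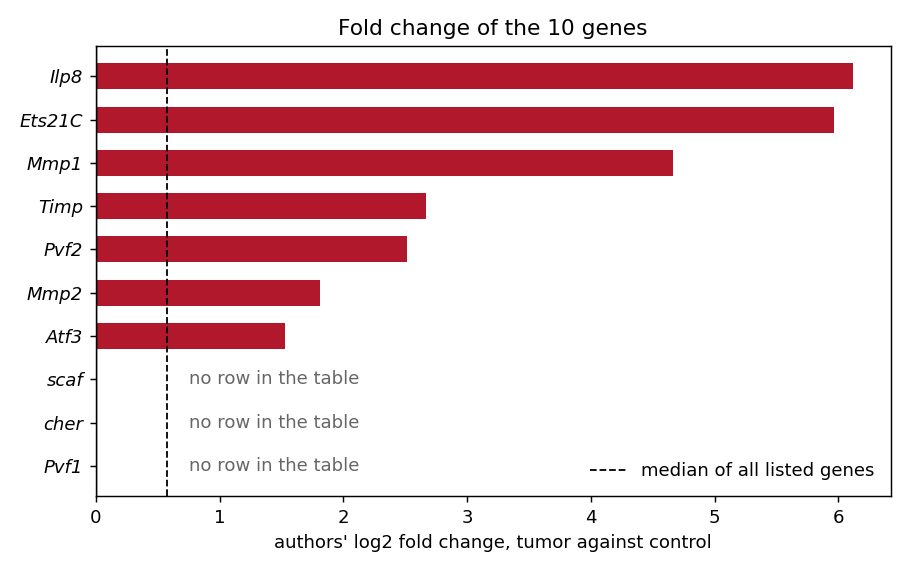
Authors' log2 fold change of the 10 genes, tumor against control, with bars for the 7 listed members and a dashed line at the median of all listed genes (0.57). All 7 bars lie to the right of that line, from 1.53 for Atf3 to 6.12 for Ilp8, and Pvf1, cher and scaf have no row; without values per sample there are no error bars.

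Both matrix metalloproteinase genes and their inhibitor gene rose. Mmp1 encodes the matrix metalloproteinase that fly tumors are best known to need for basement membrane breakdown, and in the authors' deposited table it stood 25.4-fold higher (log2 fold change 4.66, adjusted p = 9.53e-05). Its level, estimated from the same table, rose from 5.80 CPM in control to 147 in tumor. Mmp2, the other matrix metalloproteinase gene of the fly, whose product is held at the cell surface by a lipid anchor, stood 3.52-fold higher by the authors' deposited table (log2 fold change 1.81, adjusted p = 0.0200). Estimated Mmp2 rose from 7.56 to 26.6 CPM. In control the pair had nearly the same estimated level per kb of transcript (1.81 for Mmp1 and 2.05 CPM per kb for Mmp2), whereas in tumor Mmp1 stood at 45.8, the highest tumor estimate per kb of the 7, and Mmp2 at 7.22 CPM per kb. The gap of 2.85 between their log2 fold changes is a gap within the same libraries and does not depend on how libraries were scaled. It has no test here.

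Timp, which encodes the fly's single tissue inhibitor of metalloproteinases, rose as well. In the authors' deposited table it stood 6.35-fold higher (log2 fold change 2.67, adjusted p = 0.000510), and its estimated level went from 5.57 to 35.4 CPM. The estimated ratio of Mmp1 to Timp per kb of transcript rose 3.99 times, from 0.515 in control to 2.06 in tumor. For Mmp2 the same ratio went the other way, from 0.585 to 0.324. Mmp1 thus had a larger log2 fold change than Timp, and Mmp2 a smaller one, as values with no test of the difference.

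**Figure D2:**
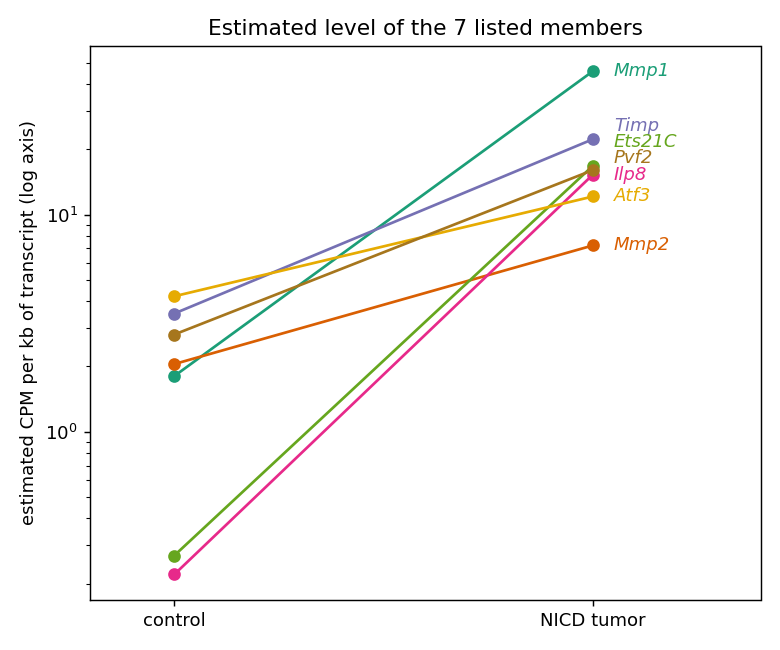
Estimated CPM per kb of transcript (log axis) of the 7 listed members in control and in NICD tumor, 1 line per gene, computed from the authors' deposited mean level and fold change, with no error known. Mmp1 goes from 1.81 to 45.8 and becomes the highest, while Ilp8 and Ets21C start lowest, at 0.221 and 0.269.

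Secreted signals were the next group. Ilp8 encodes the relaxin-like hormone that damaged or overgrowing imaginal tissue releases to hold back metamorphosis, and at 69.4-fold it had the largest fold change of the 7 in the authors' deposited table (log2 fold change 6.12, adjusted p = 0.00397). Its mean level over all libraries was 6.73 CPM in the authors' deposited table, and its estimated level rose to 13.3 CPM in tumor. Its estimated control level of 0.191 CPM lies near 0, and with the depth unknown the error of this fold cannot be given. By fold change Ilp8 ranked 122 of 3187 higher genes, but 66.2% of all listed genes had a smaller adjusted p in the authors' deposited table. Pvf2, which encodes a PDGF/VEGF-related ligand, stood 5.72-fold higher by the authors' deposited table (log2 fold change 2.52, adjusted p = 0.000323), with an estimated rise from 5.90 to 33.7 CPM. Pvf1 and Pvf3, which encode related ligands, have no row, and neither has Pvr, the gene of the shared receptor. Of this family of 4 genes 1, Pvf2, was listed, beside 65.6% of all tested genes called in either direction and 34.0% called as higher. Whether the other 3 were tested is unknown.

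The transcription factor members also differed in size. Ets21C encodes an ETS-domain factor that works with AP-1 in fly tumors, and it stood 62.4-fold higher by the authors' deposited table (log2 fold change 5.96, adjusted p = 0.000175). Its estimated level rose from 0.716 to 44.7 CPM, again from a control level below 1 CPM. Atf3, a bZIP factor that can pair with Jun, had the smallest fold change of the 7, at 2.88-fold (log2 fold change 1.53, adjusted p = 0.000421 in the authors' deposited table). Of the 7 listed members, Atf3 was the most abundant in control, with an estimated 29.6 CPM, or 4.21 CPM per kb. It reached 85.2 CPM in tumor. Among these 7, Ilp8 and Ets21C had the lowest control estimates per kb and Atf3 the highest. The folds partly fix this order, because each control estimate is computed from the mean level and the fold.

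The remaining pair have no value. scaf encodes a serine protease homolog without catalytic activity that limits JNK signaling in embryonic closure, and cher encodes filamin, which crosslinks actin. In the authors' deposited table jbug, which encodes another filamin-type protein, was 3.49-fold higher (a gene picked once its value was known). The 406 exonic bases that cher shares with cal1 on the opposite strand are 4.31% of its exons, and cal1 stood 2.13-fold higher by the authors' deposited table.

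The adjusted p-values of the members also spread widely. Mmp1 had the smallest, with 16.5% of listed genes below it in the authors' deposited table, and Mmp2 the largest, with 88.2% below it. The authors' p for Mmp2 was 0.0116 before adjustment, so among the 7 it was the member nearest to the threshold. At an adjusted p below 0.01, 6 of the 7 were called, all but Mmp2, beside 26.2% of all tested genes called as higher at that threshold.

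**Figure D3:**
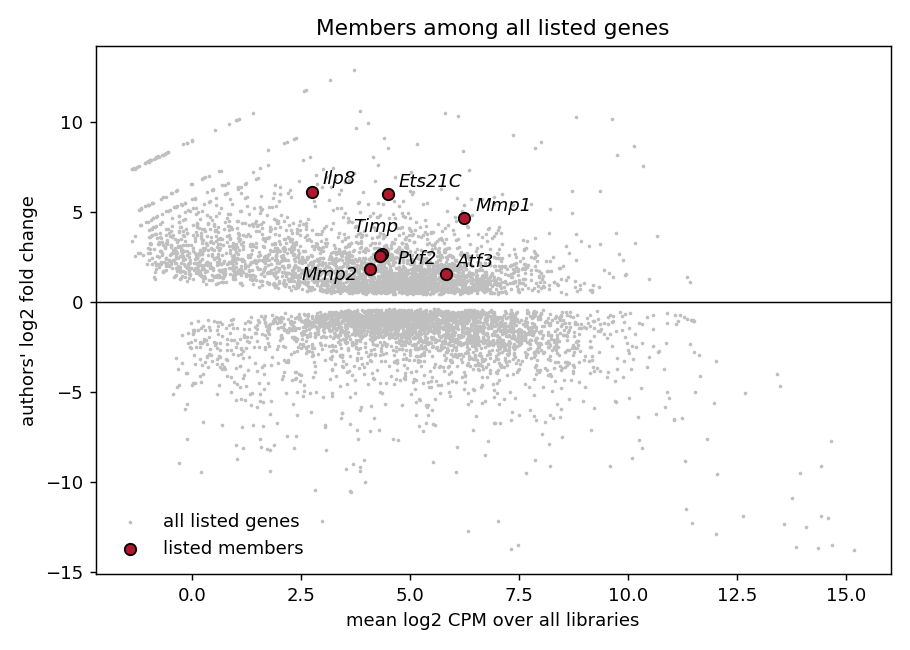
Authors' log2 fold change against mean log2 CPM over all libraries for the 6156 listed genes (grey) and the 7 listed members (red). All 7 members sit above 0, at mean log2 CPM between 2.75 (Ilp8) and 6.26 (Mmp1).

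Level and transcript length moved with fold change over the whole table, and their part in the members' values was not tested. In the lowest of 4 equal bins of mean log2 CPM, where Ilp8 lies, listed genes had a median log2 fold change of 1.88, and 94.7% of them had a smaller value than Ilp8. In the highest bin, where Mmp1 lies, the median was -1.17, and 98.2% had a smaller value than Mmp1. Atf3 and Mmp2 exceeded 78.8% and 80.4% of the listed genes in their own bins. By length, the median log2 fold change rose from -1.55 in the shortest of 5 equal bins of transcripts to 1.60 in the longest, where 92.5% of listed genes were higher. Ilp8, with an annotated transcript of 867 bases, belongs to the shortest bin, in which 21.8% were higher. Timp (1591 bases) and Pvf2 (2102 bases) belong to the middle bin, with a median of -0.59. Mmp2 and Atf3 belong to the longest bin, and their log2 fold changes of 1.81 and 1.53 in the authors' deposited table lie on either side of its median of 1.60. Mmp1 and Ets21C, in the bin below the longest, stood at 4.66 and 5.96 in the authors' deposited table against a median of 0.99.

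**Figure D4:**
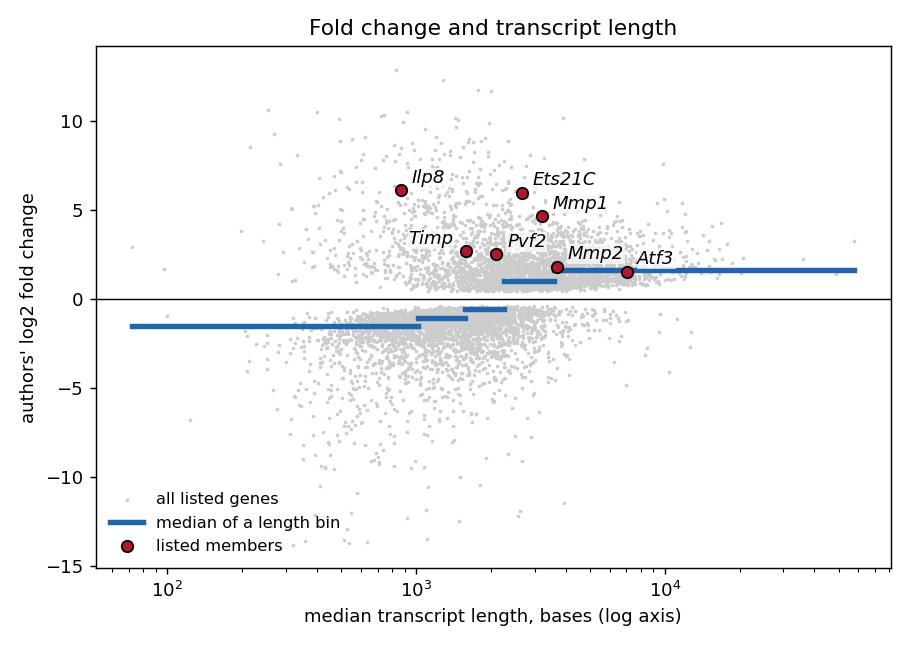
Authors' log2 fold change against median annotated transcript length in bases (log axis) for listed genes (grey), with the median of each length bin as a blue bar and the 7 listed members in red. The blue bars climb from -1.55 to 1.60, Ilp8, Timp and Pvf2 lie above bars that are below 0, and Mmp2 and Atf3 lie close to the bar of the longest bin.

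Some members share exon sequence with neighbouring genes, mostly on the other strand, and the strand setting of the counts is not given in the sources used here. Ets21C shares 1532 exonic bases, 28.3% of its annotated exons, with nAChRbeta3, an acetylcholine receptor subunit gene. Timp, which lies inside the synapsin gene Syn, shares 249 bases (15.7%) with it, Mmp1 shares 284 bases (5.87%) with Pof, and Mmp2 shares 287 bases (5.67%) with asRNA:CR44069. None of these partners has a row in the authors' deposited table. Without strand, reads in the shared stretches cannot be assigned, so the values of Ets21C and Timp carry this limit most. No single overlap of Ilp8 or Pvf2 with a neighbour covered more than 3.00% of its exons, and Atf3 and Pvf1 shared none.

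Relatives of the members did not all go the same way. The lists here and below were chosen with earlier results of these data known. Beside their counts, 34.0% of all tested genes were called as higher and 31.6% as lower. Among 17 metalloprotease and ADAMTS-like genes, 9 were listed as higher, 3 as lower and 5 were not listed, with a median of 2.05. These 17 include the members Mmp1, Mmp2 and Timp, all higher. By the authors' deposited table Ppn, which encodes the matrix protein papilin, was 42.3-fold higher, a larger value than that of Mmp1. In the authors' deposited table, tld and tok, genes of developmental proteases that free BMP ligands, had folds of 11.6 and 3.51 above control, and kuz, the gene of an ADAM protease that cuts Notch, 3.31. The neprilysin gene Nep3 (8.72-fold) and CG4096, listed by the name tables as AdamTS-B (4.88-fold), also stood higher by the authors' deposited table. Lower were AdamTS-A (2.77-fold), which encodes a secreted protease that acts in cell migration, Nep4 (1.96-fold) and Nep2 (1.75-fold) in the authors' deposited table, directions that turn under the rescaling.

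Among the 8 ETS genes, 3 were listed as higher, Ets21C included, 1 as lower and 4 were not listed. The EGF receptor pathway effectors aop and pnt, a repressor and an activator, stood at 7.21 and 6.69 times control in the authors' deposited table, so Ets21C stood 3.11 and 3.22 above them in log2 fold change. Per kb, Ets21C was estimated at 0.0779 of pnt in control and 0.726 of it in tumor. By the authors' deposited table Eip74EF, an ecdysone-induced ETS gene, was 1.79-fold lower, a direction that the same rescaling turns. Of 18 bZIP genes, 6 were higher, Atf3 included, 3 lower and 9 not listed. The Fos gene kay was 3.50-fold higher and the circadian gene Pdp1 2.64-fold higher, beside 2.88-fold for Atf3, in the authors' deposited table. Larger rises were listed for gt and slbo (log2 fold changes 6.52 and 5.81), picked once their values were known. Their mean levels lie below the lower quartile. By the authors' deposited table CrebA, the gene of a secretory pathway regulator, was 6.39-fold lower, and Jra, the Jun gene, was not listed.

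Of the insulin-like peptides and their receptors, 3 of 11 were listed, Ilp8 included, beside 65.6% of all tested genes. Ilp6, the peptide gene made mainly in fat body, was 6.48-fold lower by the authors' deposited table, and the insulin receptor gene InR 11.2-fold higher. Ilp8 and Ilp6 thus moved in opposite directions, from an estimated 0.191 and 204.9 CPM in control to 13.3 and 31.6 CPM in tumor. Lgr3, which encodes the Ilp8 receptor of brain neurons, was not listed.

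The core JNK cascade and a list of other known outputs share 3 genes, puc, kay and Traf4, so their counts are not separate. Of 18 core JNK cascade genes 9 were higher, 3 lower and 6 not listed, with a median of 1.34. The adaptor gene Traf4 (11.3-fold) and the kinase genes msn (5.43-fold) and wnd (5.14-fold) had the largest folds in the authors' deposited table. The 3 lower genes, picked once their values were known, were bsk (1.54-fold), Mkk4 (1.56-fold) and Tab2 (2.34-fold) in the authors' deposited table, and these directions also turn under the rescaling. The ligand gene egr, its receptor gene wgn and the kinase gene hep were not listed. Of 12 genes known as JNK outputs, puc, kay and Traf4 included, 11 were higher and 1, zip, was not listed, with a median of 3.50. Of all tested genes 34.0% were called as higher. This list was chosen with earlier results of these data known, so its count is no separate support. By the authors' deposited table the cell death genes hid and rpr were 21.7-fold and 17.4-fold higher, and the nuclear receptor gene ftz-f1 5.78-fold. The JAK-STAT cytokine genes upd2 (129-fold), upd3 (70.2-fold) and upd1 (18.1-fold), also picked once their values were known, lay on both sides of Ilp8 and Ets21C in size by the authors' deposited table. Their estimated control levels of 0.110, 0.204 and 0.641 CPM lie near 0, and their mean levels lie below the lower quartile. The error of these folds cannot be given. The feedback phosphatase gene puc, picked in the same way, was 2.85-fold higher by the authors' deposited table, close to Atf3.

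In the actin and motility list, where cher belongs, 12 of 25 genes were higher, 6 lower and 7 not listed, with a median of 1.48. The actin elongation gene ena (11.8-fold), the spectraplakin gene shot (8.52-fold), the fascin gene sn (6.28-fold) and the spectrin gene kst (5.99-fold) had the largest changes in the authors' deposited table, all higher. Of 16 basement membrane genes, the material that Mmp1 and Mmp2 act on, 8 were higher, 3 lower and 5 not listed. Pxn (52.0-fold), which encodes a peroxidase that crosslinks collagen, Ppn, the laminin gene wb (12.8-fold) and the multiplexin collagen gene Mp (6.86-fold) had the largest changes in the authors' deposited table among genes above the lower quartile of mean level, all higher. Pxn also belongs to the hemocyte markers below, and Ppn to the metalloprotease list, so the counts of these lists are not separate. Neither type IV collagen gene, Col4a1 nor vkg, was listed. After the rescaling no gene of the actin list and 1 of the basement membrane list stayed lower.

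**Figure D5:**
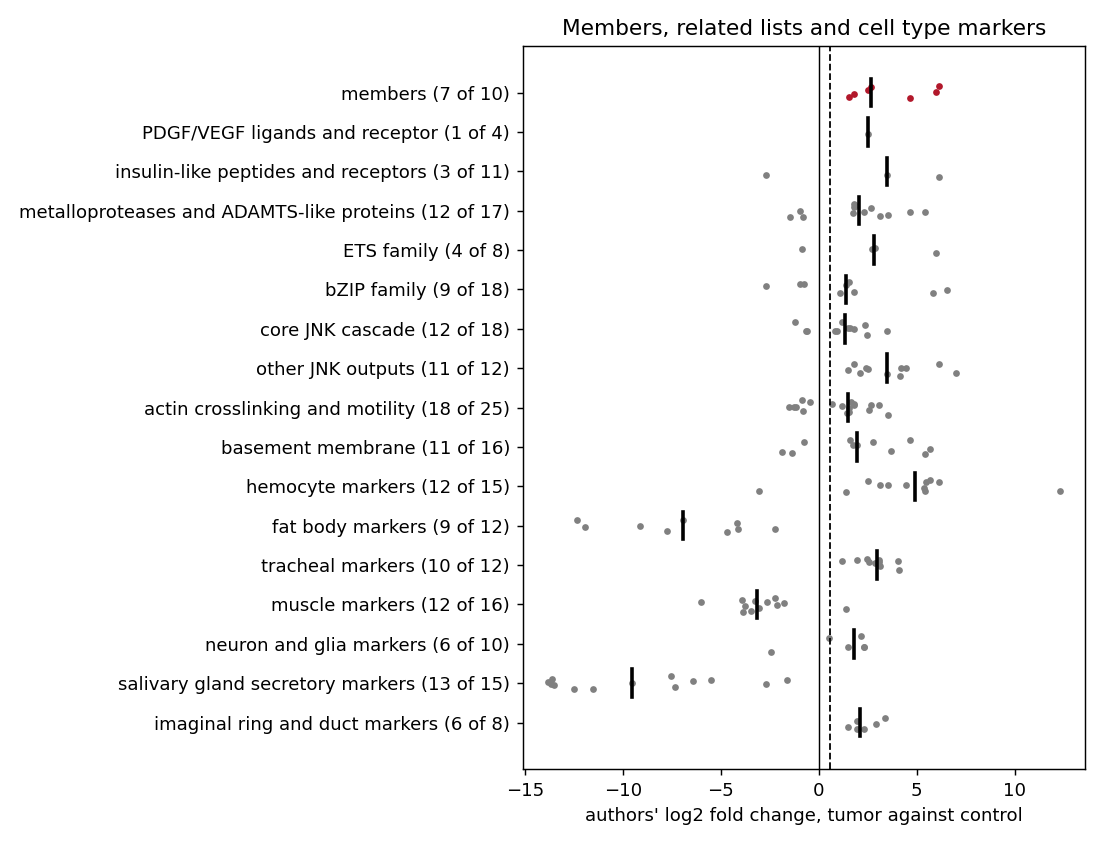
Authors' log2 fold change of every listed gene (points) in the members' set, related gene lists and cell type marker lists, with the number listed of the number in the list, a black bar at each list's median, a solid line at 0 and a dashed line at the median of all listed genes (0.57). All listed genes lie to the right of 0 among the members, the JNK outputs, the tracheal markers and the imaginal ring and duct markers, and all lie to the left among fat body and secretory gland markers.

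Cell type markers also changed, some lists in the members' direction and others against it, and their part in the members' values was not tested. Secretory gland markers fell in 13 of 15 genes (12 after the rescaling), and the summed estimate of those listed went from 278895 CPM in control to 320.1 CPM in tumor, with Sgs7, a glue protein gene, at -13.81 in the authors' deposited table. Fat body markers were lower in 9 of 12 genes, from 193927 to 1650 CPM, and muscle markers lower in 11 of 16 (7 at an adjusted p below 0.01) and higher in 1. Hemocyte markers, from blood cells that are known to gather on tumors and that also make matrix, were higher in 11 of 15 genes and lower in 1, and their summed estimate rose from 266 to 1752 CPM. Among them PPO2 and PPO1, prophenoloxidase genes, had folds of 71.3 and 43.8 above control in the authors' deposited table, while NimC2 was 8.16-fold lower. NimC4 was fitted at 0 in control by the authors' deposited table, and srp, gcm and crq were not listed. Tracheal markers were higher in 10 of 12 genes, from 239 to 1172 CPM, and neuron and glia markers higher in 5 of 10 and lower in 1. Markers of the imaginal ring and duct were higher in 6 of 8 genes, including toe (7.54-fold) and Fas3 (4.88-fold) in the authors' deposited table, from a summed 216 to 1111 CPM. The salivary gland gene fkh, also in that list, was not listed, so the labelled tissue could not be checked by it. In control, the listed secretory gland and fat body markers summed to 278895 and 193927 CPM, against 216 CPM for ring and duct markers. The control levels and folds given here are therefore not those of ring cells alone. By comparison the 7 listed members together went from an estimated 55.3 to 385.8 CPM.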

How the data were processed

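The authors counted reads with featureCounts and compared groups with DESeq2, without versions, per the submitters' processing notes; the deposited column names are those of edgeR, per the file headers, and which tool made these values is not settled here. Aligner, build and strand setting: not given in the sources used here. Per the file headers, each deposited gene row holds 2 forms of log2 fold change (shrunken, used here, and unshrunk), the mean log2 CPM, and a p-value with its adjusted p. A second deposited sheet gives call numbers, whose contrast is tumor minus control.

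The largest adjusted p listed was 0.0499. Estimated CPM treated the mean CPM as midway between the group levels, which the files do not allow to be checked gene by gene. Over the listed genes the estimates sum to 1224976 CPM (control) and 351471 CPM (tumor). The control sum exceeds 1000000, so the estimates are relative levels and not shares of the reads. Lengths are medians over annotated transcripts (BDGP6, version 54, from Ensembl release 115) and were found for 99.3% of listed genes; the authors' build may differ, so no coordinates are printed. Promoter and protein sequences were not used here.

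The members and 16 related lists (209 symbols with the members) were chosen with earlier results of these data known. Of the list symbols 1 matched no gene. Named genes are the members, all listed genes of the PDGF/VEGF, insulin-like peptide, metalloprotease and ETS lists, the 4 largest changes in each other pathway list among genes with a mean log2 CPM above 3.06 (the lower quartile), the 3 most abundant genes of marker lists, and overlapping genes; others are said to have been chosen later. No test was run on lists. Python 3.11.15, pandas 2.3.3 and matplotlib 3.10.9 were used.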

Additional observations from a re-analysis of the deposited data

How the results depend on the processing

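No paired analysis was possible because there are no values per sample in the files, and for the same reason no replicate could be left out and no other tool run. The search for promoter motifs was not run, as no sequence was used here. All 7 listed members stayed higher with unshrunk fold changes, which exceed the deposited ones by at most 0.027 on the log2 scale, at a minimum of 2-fold, and relative to the median of all listed genes. These outcomes follow from the listed values, the smallest being 1.53 for Atf3, and are no separate support. At an adjusted p below 0.01 Mmp2 (log2 fold change 1.81) was no longer called, by construction of that threshold. The members' median of 2.67 became 2.10 relative to the median of all listed genes and 3.61 as a mean. A rescaling chosen after seeing the data, which makes the estimated CPM of all listed genes sum to the same total in both groups, adds 1.80 to every log2 fold change. It can therefore turn no higher gene lower. It moves the members' median to 4.47 and turns named genes from lower to higher: bsk (1.18), Mkk4 (1.16), Nep2 (0.99), Eip74EF (0.96), Nep4 (0.83), Tab2 (0.58) and AdamTS-A (0.33). Relative to the median of all listed genes nrv2, the glial marker gene listed at 0.52, turned to -0.054. Several list counts moved by more than 1.5 times. At a minimum of 2-fold, lower genes went from 3 to 1 in the metalloprotease, bZIP and core JNK lists, from 6 to 3 in the actin list and from 1 to 0 in the ETS list. After the rescaling they came to 0 in the metalloprotease, core JNK, actin and ETS lists and to 1 in the bZIP and basement membrane lists, and higher genes rose from 1 to 2 among muscle markers and from 0 to 1 among secretory gland markers. At an adjusted p below 0.01, lower genes went from 3 to 1 in the basement membrane list and from 11 to 7 among muscle markers, and higher genes from 5 to 3 among neuron and glia markers. Above the lower quartile of level the insulin-like list went from 2 higher genes to 1, and relative to the median of all listed genes the neuron and glia list went from 1 lower gene to 2. Among the other named genes, gt, slbo and NimC4 aside, 289 gene and setting pairs kept direction and call. Another 13 lost the call under a stricter threshold and 8 turned. Many of these pairs could not change, as adding 1.80 turns no higher gene and subtracting 0.57 turns no lower gene. The 289 are thus no separate support. Among the members, the unknown depth limits Ilp8 and Ets21C most, whose estimated control levels lie below 1 CPM. The same limit holds for upd1, upd2 and upd3.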
